A study of Mus musculus with 8 samples.

Results

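The cytosolic ribosomal protein genes were examined in BMEL cells, a bipotential cell line derived from mouse embryonic liver, after transfection with a plasmid for the epithelial transcription factor GRHL2. The members are the rows of the expression table whose symbol is Rpl or Rps followed by a number (with an optional a, x or y and a further digit), or is Rplp0, Rplp1, Rplp2 or Rpsa, without ribosomal S6 kinases and without symbols marked as pseudogenes. This rule, which used no measured value, gave 79 of the 18671 genes, 46 named for the large subunit and 33 named for the small subunit (Rpsa counted with the latter). RNA was taken 48 h after transfection from 8 samples: 4 received the pGRHL2 plasmid, which encodes human GRHL2 with a Flag tag and also EGFP from an EF1A promoter, and 4 received the pcDNA3 vector as control. The plasmids therefore differ by more than GRHL2, and all 8 samples share the line, the collagen coating and a medium with serum, IGFII, EGF and insulin. The replicates are described in the study's supplement as independent biological replicates of this line, and p-values measure the spread between these samples.

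Ribosomal proteins coat the ribosomal RNA of both subunits, and their genes are transcribed by RNA polymerase II in amounts matched to the ribosomal RNA made by RNA polymerase I. Their mRNAs are short and abundant, and most begin with a C followed by an unbroken run of pyrimidines, the 5′ terminal oligopyrimidine (TOP) motif, through which growth signals carried by mTOR and LARP1 control their translation. In liver cells, as elsewhere, their output follows growth and cell mass.

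None of the 79 members passed the test between pGRHL2 and pcDNA3 in either direction (limma, Benjamini-Hochberg adjusted p under 0.05), whereas 3061 of the 18671 genes did (16.4%). These comprised 1957 genes higher with pGRHL2 (10.5%) and 1104 lower (5.91%). Among the 1867 genes of highest level, which hold 74 of the members, the shares were smaller in the higher direction (3.16%) and larger in the lower (7.93%). The lowest adjusted p among the members was 0.064, for Rps2. At an unadjusted p under 0.05, 5 members were counted (all lower with pGRHL2), beside 31% of all genes. The differences of group means were small throughout, from -0.15 to 0.08 on the log2 scale, and the 95% confidence interval of every member lay within 0.5 of 0 on that scale, its lowest bound being -0.3 (Rpl35) and its highest 0.23 (Rpl38). Most estimates had the same sign: 67 members lay below 0 and 12 above, with a median of -0.047 (quartiles -0.078 and -0.013) beside 0.007 over all genes. Of all genes, 8610 lay below 0 and 10061 above. The median standard error of a single member's difference was 0.0575. In bulk RNA, fewer cells with a transcript and less of it per cell cannot be told apart.

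The values are log2 expression values scaled to transcript length, so levels can be set side by side between genes, while the read depth of the samples is unknown. The transfection was visible in the mouse Grhl2 row, at 6.30, 6.96, 5.65 and 6.05 with pGRHL2 and 4.68, 4.57, 4.42 and 4.44 with pcDNA3. The difference was 1.71 ± 0.222 (SE; limma adjusted p = 0.00100), and whether these reads came from the plasmid or from the endogenous gene was not tested. The 11 liver and epithelial markers ran from 5.22 to 15.36 in mean value. The epithelial markers Krt8 (15.36) and Krt19 (15.13) and the hepatic factor Hnf4a (11.16) were at high levels in the line, while Alb (5.22), the main secreted protein of hepatocytes, lay below the median of all genes (6.45). The biliary factor Sox9 (6.82) and the adhesion molecule Epcam (6.43 in the controls and 8.18 with pGRHL2) were near that median in the controls. Of the markers of other cell types, the 5 immune markers ran from 0.14 to 6.17 (highest Cd68), the 4 endothelial ones from 1.24 to 3.29 and the 3 stellate and fibroblast ones from -0.18 to 5.28 (highest Col1a1). Dlk1, a hepatoblast marker, was not analysed here.

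The ribosomal protein genes stood near the top of the expression range. Their mean value over the 8 samples ran from 3.44 to 16.18 with a median of 13.38, beside a median of 6.45 over all genes, and 67 of the 79 were among the 500 genes with the highest level. When values were returned to the linear scale and summed, the members made up 9.16% ± 0.0624 of the length-scaled signal with pGRHL2 and 9.3% ± 0.613 with pcDNA3 (SD, n = 4). In the single samples this share was 9.1, 9.23, 9.12 and 9.2% with pGRHL2 and 9.59, 8.39, 9.69 and 9.55% with pcDNA3. The control samples thus enclosed the pGRHL2 samples, with control replicate 2 below and the other 3 controls above all of them.

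**Figure D1:**
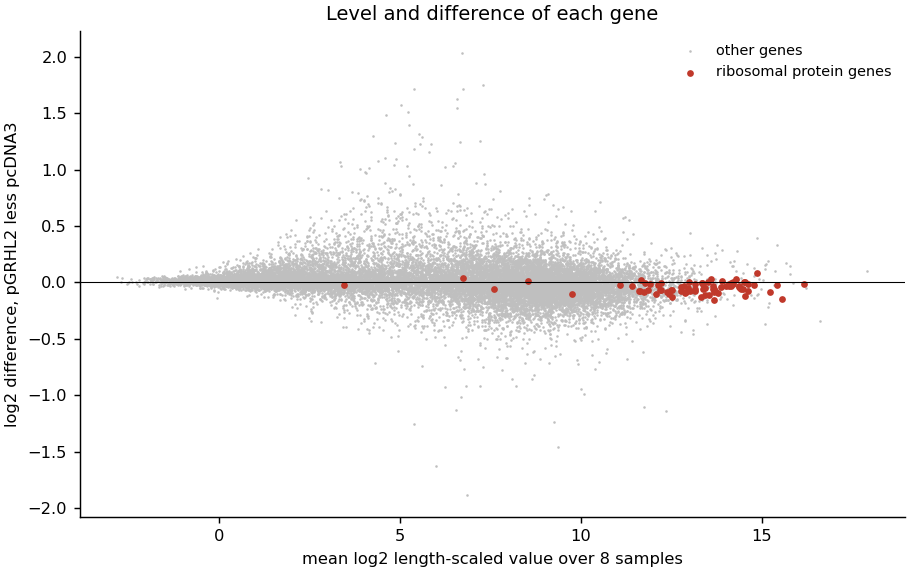
Difference between pGRHL2 and pcDNA3 (vertical axis, log2) against the mean log2 length-scaled value over 8 samples (horizontal axis) for each gene, with the 79 ribosomal protein genes in red and the other genes in grey. The members lie mostly at the high end of the level axis, with differences from -0.15 to 0.08.

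Pyrimidine stretches were frequent near the annotated starts of these genes, though seldom exactly at them. RefSeq promoters on GRCm38.p6 were found for 57 of the 79 members, and a stretch of C and T beginning with C and at least 8 bases long occurred on the sense strand within 50 bases either side of an annotated start in 48 of them (84.2%). The same stretch was found in 4138 of 12883 genes of the table with a promoter (32.1%). An annotated start that itself was C followed by 4 pyrimidines was found in 13 of 67 member promoters (19.4%) and in 2.38% of the promoters of all genes of the table. The following sequences are windows of 30 bases around the stretch in members whose RNA values are given further on, 5′ to 3′ on the sense strand, with the stretch in capitals. Each window starts 8 bases before the stretch and lies across the start of the gene, just upstream of it or in its first exon.
Rps12: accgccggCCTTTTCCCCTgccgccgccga
Rpl31: tcgccacaCCTCTTCCTCCTCgcctccccg
Rplp2: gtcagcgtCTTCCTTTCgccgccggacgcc
Rpl5: tacagccaCTCTTTCTCacgtcgcttgcgt
Rpl11: ccggaagtCTCCCTCTCTCTTCCTgttctc
Rps6: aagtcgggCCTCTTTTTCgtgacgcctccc
Rpl38: gcctcgttCTTTCCCCgttctcttcggttc

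The window of Rps12 is at chr10:23787180-23787209 on the minus strand and that of Rpl31 at chr1:39367825-39367854 on the plus strand. Those of Rplp2 and Rpl5 are at chr7:141447639-141447668 and chr5:107900500-107900529, both on the plus strand. Those of Rpl11 and Rps6 are at chr4:136053358-136053387 and chr4:86857347-86857376, both on the minus strand, and that of Rpl38 is at chr11:114668572-114668601 on the plus strand. A match describes the letters in this window only. The median difference between pGRHL2 and pcDNA3 was -0.057 for the members with the stretch and -0.017 for those with a promoter but without it, and 0.013 and 0.006 for all genes with and without it. The first window of the list belongs to the member with the lowest estimate (Rps12, -0.15) and the last to a member on the other side of 0 (Rpl38, 0.0222), both with the stretch.

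In the large subunit, the median difference was -0.039, and 38 of the 46 members lay below 0. The P stalk, which recruits translation factors to the ribosome, is built on Rplp0 with the small acidic proteins Rplp1 and Rplp2, next to Rpl12. Rplp0 was the most abundant member, at 16.12, 16.17, 16.24 and 16.15 with pGRHL2 and 16.24, 15.99, 16.28 and 16.25 with pcDNA3. The pGRHL2 samples of Rplp0 lay between control replicate 2 and the other controls or level with one of these, and the difference was -0.017 (95% confidence interval -0.15 to 0.12, limma adjusted p = 0.882). Rplp1 (chr9:61913284-61914542) was at 14.50, 14.57, 14.43 and 14.43 with pGRHL2 and at 14.64, 14.53, 14.67 and 14.59 with pcDNA3, so that only control replicate 2 reached into the pGRHL2 range. Its difference was -0.12 ± 0.0427 (SE; limma adjusted p = 0.0782). With the replicate number as a block in limma the adjusted p was 0.0391. Rplp2 gave -0.0891 (interval -0.21 to 0.03) and Rpl12 -0.0954 (interval -0.26 to 0.07), both with overlapping groups.

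Rpl5 and Rpl11 join the 5S ribosomal RNA before they enter the large subunit, and as a free complex they bind the p53 regulator MDM2. Rpl5 was at 14.37, 14.39, 14.38 and 14.39 with pGRHL2 and 14.51, 14.33, 14.48 and 14.46 with pcDNA3. Its pGRHL2 values were nearly the same in all 4 samples, and control replicate 2 lay under them while the other controls lay above, for a difference of -0.061 (interval -0.15 to 0.03, limma adjusted p = 0.35). Rpl11 was at 13.22, 13.17, 13.10 and 13.14 against 13.24, 13.01, 13.20 and 13.22, a difference of -0.0105 (interval -0.13 to 0.11). Neither partner of the 5S complex passed the test with all 8 samples, and Rpl5 did without control replicate 2 (-0.10, limma adjusted p = 0.0318).

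Among the proteins at the exit of the peptide tunnel, where chaperones and the targeting machinery bind, Rpl31 had the lowest estimate of the large subunit. It was at 13.30, 13.26, 13.14 and 13.28 with pGRHL2 and 13.50, 13.18, 13.42 and 13.39 with pcDNA3, a difference of -0.13 (interval -0.28 to 0.02, limma adjusted p = 0.225). Here too control replicate 2 fell inside the pGRHL2 range. The 8 tunnel genes of the list had a median of -0.05, from -0.13 to 0.01. Rpl36, another large subunit protein, gave -0.13 (interval -0.29 to 0.04), with 12.51, 12.55, 12.27 and 12.48 against 12.67, 12.41, 12.66 and 12.58. The very short Rpl41 was at 14.25, 14.19, 13.98 and 14.18 against 14.35, 13.89, 14.19 and 14.19, which gave -0.00358 with a wide interval (-0.21 to 0.20). Its lowest samples were pGRHL2 replicate 3 and control replicate 2, 1 in each group.

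At the other end of the large subunit, Rpl38, which influences the translation of Hox mRNAs in the mouse embryo, was at 11.72, 11.73, 11.48 and 11.72 against 11.86, 11.41, 11.59 and 11.69, for 0.0222 (interval -0.19 to 0.23). Rpl23, which can also bind MDM2, gave 0.0263 (interval -0.11 to 0.16). Neither kept its sign without control replicate 2, at -0.05 and -0.02 in that order. Rpl9 was singled out after its values were seen, as 1 of only 2 members whose groups did not overlap. It was at 12.99, 12.97, 13.02 and 12.97 with pGRHL2 and 13.09, 13.04, 13.07 and 13.07 with pcDNA3, a difference of -0.0785 ± 0.033 (SE; limma adjusted p = 0.138, and 0.0436 with the replicate block).

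In the small subunit, the median difference was -0.052, and 29 of 33 members lay below 0. Rps2 sits with Rps3 and Rps9 at the channel through which mRNA enters, and after Rplp0 it was the most abundant member. Rps2 (chr17:24718116-24721929) was at 15.55, 15.57, 15.45 and 15.38 with pGRHL2 and 15.65, 15.55, 15.69 and 15.63 with pcDNA3. The groups met only through control replicate 2, and the difference was -0.14 ± 0.0467 (SE; interval -0.25 to -0.04, limma adjusted p = 0.064, exact two-sided permutation p = 0.0571). With the replicate block its adjusted p was 0.0263. Its neighbours at the entry channel gave -0.0597 (Rps3) and -0.0145 (Rps9), neither past the test.

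Rps12 (chr10:23785183-23787275), a protein of the subunit's beak, had the lowest estimate of all members. It was at 13.63, 13.72, 13.51 and 13.56 with pGRHL2 and 13.89, 13.60, 13.78 and 13.76 with pcDNA3. Its difference was -0.15 ± 0.0657 (SE; interval -0.30 to -0.01), and 3 of 4 same-numbered pairs were lower with pGRHL2 (limma adjusted p = 0.145, and 0.0793 with the replicate block). The exception among the controls was again replicate 2.

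Separation of all 4 samples of one group from all 4 of the other was thus found for 2 of 79 members (both lower, Rpl9 among them), and for 23.8% of all genes. The exact permutation test then gives 0.0286, the smallest value it can give for 4 against 4 samples. Rps6, the substrate of the S6 kinases downstream of mTOR, lay between 13.96 and 14.01 in the pGRHL2 samples and at 14.09, 13.91, 14.06 and 14.02 with pcDNA3. Its values overlapped and the difference was -0.0317 (interval -0.13 to 0.06). Rpsa, also known as a laminin receptor, gave -0.0229 (interval -0.16 to 0.12), and Rps27a, made as a fusion with ubiquitin, -0.0564 (interval -0.18 to 0.07).

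The highest estimate of all members was that of Rps4x, the X-linked small subunit gene. It was at 14.88, 14.88, 14.95 and 14.91 with pGRHL2 and 14.89, 14.60, 14.92 and 14.87 with pcDNA3, a difference of 0.083 ± 0.0637 (SE; interval -0.06 to 0.23, limma adjusted p = 0.417). Control replicate 2 stood by itself at the bottom, and without it the difference was 0.01. Of the 11 members whose human counterparts are mutated in Diamond-Blackfan anemia, an inherited failure of red cell production, all 11 had estimates below 0. So did 67 of all 79 members, and the sign is not particular to these 11. Their median was -0.061, and none passed the test.

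**Figure D2:**
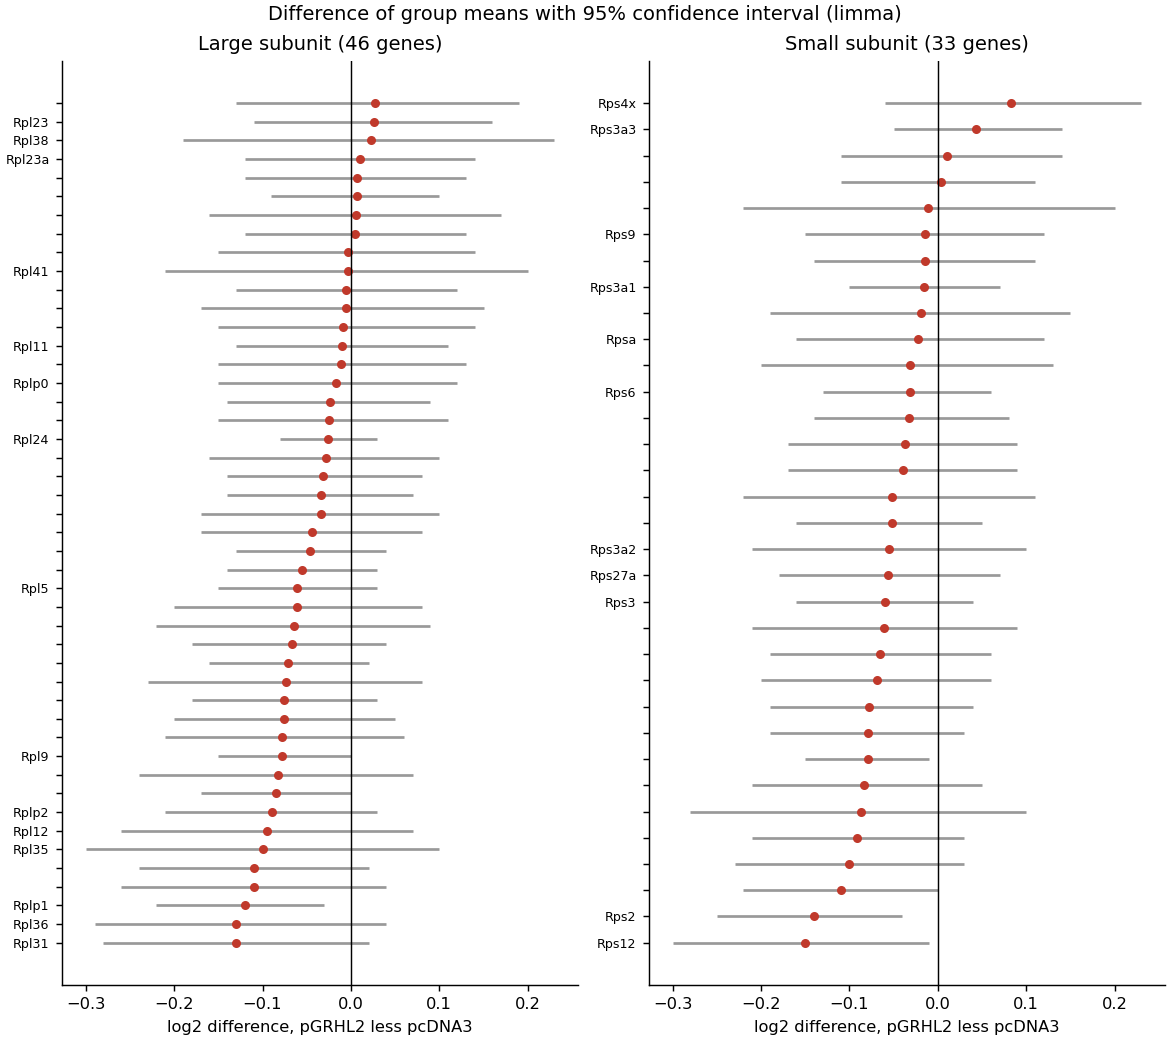
Difference of group means, pGRHL2 less pcDNA3, on the log2 scale (points) with its 95% confidence interval from limma (lines) for the 46 large subunit and 33 small subunit genes, each panel sorted by the difference, with symbols beside the genes described in the text. Of the points, 67 lie left of 0, and most intervals include 0.

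A few members were far less abundant than the rest. Rpl24, a large subunit protein, was at 3.42, 3.44, 3.42 and 3.41 with pGRHL2 and 3.41, 3.44, 3.47 and 3.47 with pcDNA3. This was the lowest level of all members, and the groups lay within 0.1 of each other. In the GENCODE M21 annotation, 47% of the exon bases of Rpl24 are shared with another gene (Gm28037). The share was 66.2% for Rpl35 and 62.3% for Rpl23a, which were the next lowest of the members annotated as protein-coding (values of 9.53 to 10.03 and 8.42 to 8.66). Of the 79 members, 37 had any such overlap and 2 had over 50%. The part of this overlap in the low values was not tested. Rps3a2 (7.43 to 7.77) and Rps3a3 (6.65 to 6.77), which the symbol rule also takes, are annotated as processed pseudogenes and stood far below Rps3a1 (14.51 to 14.67). Reads of such copies can be shared with their parent gene, so their values are uncertain.

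The members moved together from sample to sample, and their pattern was dominated by a single control. After each gene's mean over the 8 samples was subtracted, the median over the members was -0.013, 0.005, -0.046 and -0.018 with pGRHL2 and 0.096, -0.126, 0.071 and 0.037 with pcDNA3. Control replicate 2 was the lowest of the 4 controls in 77 of 79 members (27.1% of all genes) and the lowest of all 8 samples in 47. Against the mean of the other 3 controls it lay lower in all 79, by a median of -0.206 (from -0.445 to -0.013), where the median over all genes was 0.004. The median SD of a member was 0.0497 with pGRHL2 and 0.112 with pcDNA3, and 0.0433 with pcDNA3 once replicate 2 was left out. Over all genes the corresponding SDs were 0.0587 and 0.0595. The spread of the controls in these genes was thus mostly that of 1 sample.

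**Figure D3:**
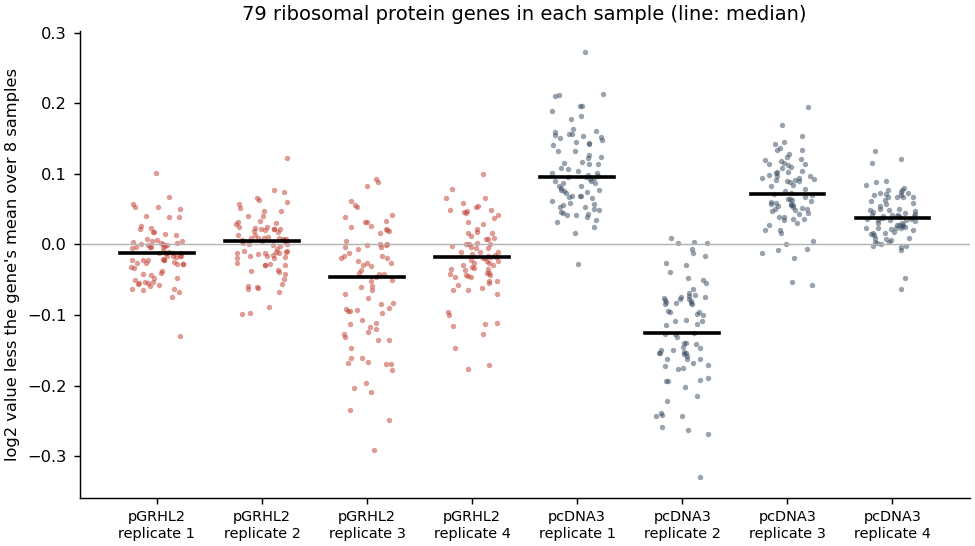
Log2 value of each of the 79 ribosomal protein genes less its mean over 8 samples (points) in each sample, with the median over the members (line), for pGRHL2 (red) and pcDNA3 (dark). The median of control replicate 2 is -0.126, while the other 3 controls are at 0.037 to 0.096 and the pGRHL2 samples at -0.046 to 0.005.

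Across the 8 samples the median Pearson correlation between 2 members was 0.687, and 74.3% of pairs exceeded 0.5, a description of genes that share the same 8 libraries. Within same-numbered pairs the median difference of the members was -0.116, 0.124, -0.115 and -0.06 for replicates 1 to 4. In replicate 2 alone the sign was opposite, with 75 members higher with pGRHL2 and 4 lower, against 77, 76 and 67 lower in the pairs 1, 3 and 4. The median over all genes stayed between 0.004 and 0.01 in these pairs. In control replicate 2, the deviation of each gene from the other controls also moved with its annotation, with a Spearman correlation of -0.206 with GC content and 0.275 with transcript length over 18428 genes, which share the library. The members have a median GC content of 51.9% (50.6% over all genes) and a median transcript length of 714 bases (1679 over all genes). After each sample was corrected for GC content or for transcript length, the centred median of control replicate 2 over the members was -0.115 or -0.097, and the median difference of the members -0.057 or -0.053. The GC correction called 2 members lower (6.83% of all genes) and the length correction 1 (6.73%), and the GC correction with the replicate block called 10 (14.7%).

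The count of called members depended on control replicate 2. Without it, 13 members fell (limma, adjusted p under 0.05) and none rose, beside 4.57% of all genes that were lower, and the median of the members moved from -0.047 to -0.092. Among the 13 were Rpl5, Rpl18, Rpl26, Rpl31, Rpl32, Rplp1, Rps2, Rps7, Rps10, Rps12, Rps15 and Rps26, and 6 of the 11 Diamond-Blackfan genes were among them. This setting was 1 of 8 in which a sample was left out. Leaving out pGRHL2 replicate 2 gave 2 (Rplp1 and Rps2, beside 5.55% of all genes), and the other 6 gave none, with member medians between -0.092 and -0.021 over the 8. With both replicates 2 left out, a setting chosen after seeing the data, 15 members fell, beside 5.04% of all genes.

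Samples of the same number deviated together over all genes. Over the members alone they did so less evenly, with r = 0.514, 0.209, 0.646 and 0.279 for numbers 1 to 4. With the replicate number as a block 4 members fell, among them Rpl9, Rplp1 and Rps2, and none rose. Over all genes 13.9% were lower and 18.2% higher with the block. The shares of members called, 0 of 79 without the block and 4 of 79 with it, were below the share of all genes called lower in each fit. Rplp1 and Rps2 were the only members called both with the block and without control replicate 2. Their differences over all settings ran from -0.17 to -0.07 for Rplp1 and from -0.20 to -0.09 for Rps2.

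The position of the members relative to 0 also moved with the scaling of the samples, since their differences are close in size to the offsets between scalings. As deposited, 67 of 79 members lay below 0. With an equal upper quartile 54 did (median -0.024), with an equal sum 52 (median -0.022), with an equal sum over the genes that are not members 54 (median -0.025), and with an equal median 77 (median -0.077). None of these shifts called a member, and all 4 left the members' median 0.053 below that of all genes, since a shift moves every gene alike. Quantile normalization brought the median to -0.028 beside -0.011 over all genes and called 2 of 79 members lower (Rplp1 and Rps2), beside 7.97% of all genes. Cyclic loess, which removes differences that follow the level, put 39 members above 0 and 40 below, with a median of -0.003 for the members and for all genes alike.

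**Figure D4:**
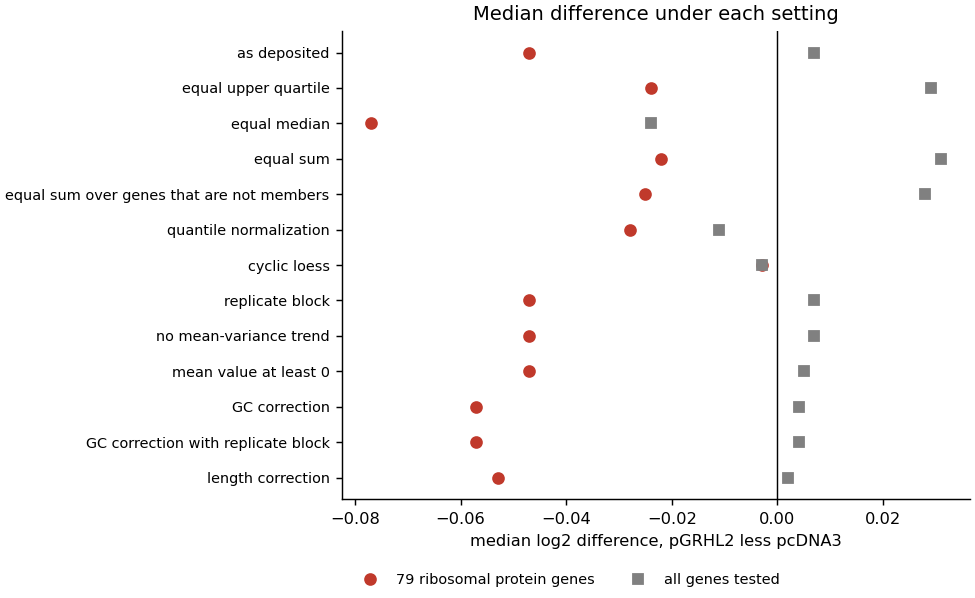
Median log2 difference, pGRHL2 less pcDNA3, of the 79 ribosomal protein genes (red circles) and of all genes tested (grey squares) under each setting named on the vertical axis. The members lie 0.053 below all genes as deposited and under the shifts of whole samples, and the points coincide at -0.003 with cyclic loess.

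The level itself went with the sign of the difference. When all genes were cut by mean value into 10 classes of 1867 or 1868 genes, the highest class, which holds 74 members, had a median difference of -0.032. The next 3 classes were at -0.017 to -0.027, and the lower 6 at 0.012 to 0.022. With cyclic loess the highest class was at 0.008. The share of genes called also went with level. In the lowest class 0.589% were lower and 13.4% higher, and in the highest 7.93% were lower and 3.16% higher. Among the members alone the difference showed Spearman correlations of 0.0999 with level, -0.122 with GC content and 0.0631 with transcript length, all weak.

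Components and relatives outside the symbol rule were examined next. Fau, made as a fusion with a ubiquitin-like protein, and Rack1, a scaffold on the small subunit, gave -0.0303 and -0.0145, neither past the test. Of 7 paralogs in the table, 1 fell and 1 rose, beside 5.91% of all genes lower and 10.5% higher. Rps27l, a p53 target, fell. It was at 11.92, 11.94, 11.81 and 11.91 with pGRHL2 and 12.18, 12.11, 12.12 and 11.99 with pcDNA3, without overlap, for -0.20 ± 0.0506 (SE; limma adjusted p = 0.0225). Its call was lost without pGRHL2 replicate 3 or without pcDNA3 replicate 1 or 3 (adjusted p up to 0.0691). Rpl3l, the striated muscle paralog of Rpl3, rose by 0.23 ± 0.052 (SE; limma adjusted p = 0.0164) from a low control mean of 3.78. Rpl22l1 gave -0.18, and passed the test with the replicate block (limma adjusted p = 0.00724) but not without it. Of 108 ribosomal pseudogene rows, 1 passed the test (Rpl7a-ps3, -0.14; 0.926%, beside 5.91% of all genes lower), though not with an equal sum or when pGRHL2 replicate 1 or pcDNA3 replicate 3 was left out. Of 76 mitochondrial ribosomal proteins 2 fell, among them Mrpl38 by 0.23 (2.63%, beside 5.91% of all genes), and 11 fell with the replicate block (beside 13.9% of all genes).

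Genes that act with ribosomes or build them were counted in the same way, on lists chosen with earlier results of these data known. The median level of each list lay in the highest of the level classes above, where 7.93% of genes fell, or in the next, where 9.43% did. Of 18 elongation factors and other classical TOP RNAs, 2 fell (11.1%, beside 5.91% of all genes) and none rose, with a median of -0.045 close to that of the members. Eef1a1 (0.0979), Eef2 (-0.00729), Tpt1 (0.0189) and Npm1 (-0.10) did not pass the test. Npm1 was called lower with the replicate block (limma adjusted p = 0.0421), and Eef1a1 higher with the GC correction and replicate block (adjusted p = 0.0482), its difference reaching 0.33 with quantile normalization without passing the test. Eif3a, a scaffold of initiation factor 3, fell by 0.45 and Gas5, a non-coding host of small nucleolar RNAs, fell by 0.31. Both calls were lost when replicate 3 or 4 of pGRHL2 or replicate 1 or 2 of pcDNA3 was left out, and that of Gas5 also without pGRHL2 replicate 1 (adjusted p up to 0.0785 and 0.0956). With the replicate block 6 of the 18 fell, where 13.9% of all genes did. Of 29 initiation factors 4 fell (13.8%, beside 5.91% of all genes) and none rose (median -0.103). This list leaves out Eif3a, Eif3e, Eif3f, Eif3h and Eif4b, which were counted with the TOP RNAs. The lowest of the 29 was Eif4a2, a cap-binding complex helicase, at -0.44 ± 0.0874 (SE; limma adjusted p = 0.00842). With the replicate block 15 of the 29 fell (13.9% of all genes), and without control replicate 2 only 2 (4.57% of all genes).

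Of 78 ribosome biogenesis factors, 8 fell (10.3%, beside 5.91% of all genes) and none rose, with a median of -0.157 and 72 estimates below 0. Their median level was 9.77, and in the level class from 9.28 to 10.29 the share of genes that fell was 9.43%, close to that of the list. The lowest was Utp20, a component of the small subunit processome, at 10.20, 10.28, 9.86 and 9.78 with pGRHL2 and 10.59, 10.94, 10.33 and 10.34 with pcDNA3, without overlap. Its difference was -0.52 ± 0.152 (SE; limma adjusted p = 0.0432), a call lost when any of pGRHL2 replicates 1, 3 and 4 or pcDNA3 replicates 1 and 2 was left out (adjusted p up to 0.107). Fbl, the rRNA methyltransferase of box C/D particles, gave -0.0568 and Ncl, nucleolin, -0.17 (limma adjusted p = 0.471, and 0.00385 with the replicate block). With the block 51 of the 78 fell and 1 rose (13.9 and 18.2% of all genes), without control replicate 2 only 2 fell (4.57% of all genes), and with cyclic loess 4 fell (median -0.125; 6.12% of all genes).

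Of 12 genes for RNA polymerase I and its factors, 3 fell (beside 5.91% of all genes) and none rose (median -0.112). Taf1d, a subunit of the selectivity factor for ribosomal DNA, was at 10.16, 10.18, 9.85 and 9.82 with pGRHL2 and 10.82, 11.06, 10.62 and 10.57 with pcDNA3. The groups were far apart in every pair, for -0.76 ± 0.12 (SE; limma adjusted p = 0.00259). Polr1a, the largest subunit, gave -0.13 (limma adjusted p = 0.461, and 0.0341 with the replicate block). With the replicate block 6 of the 12 fell (13.9% of all genes), and without control replicate 2 only 2 (4.57% of all genes). Of 18 genes of the mTOR pathway and regulators of TOP mRNAs, Tsc1 fell by 0.35 and Mtor by 0.25 (11.1%, beside 5.91% of all genes), while Larp1 (-0.12), Eif4ebp1 (-0.00303) and Myc (0.0338) did not pass the test. With the replicate block Larp1 did (limma adjusted p = 0.0411). The call of Mtor was lost when any of the samples but pcDNA3 replicates 2 and 3 was left out, and with the replicate block 5 of the 18 fell and 3 rose (13.9 and 18.2% of all genes).

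Control replicate 2 lay on opposite sides in these lists. Its centred median was 0.198 for the biogenesis factors, 0.134 for the initiation factors and 0.167 for the polymerase I genes, above each of the other 7 samples, while it was -0.126 for the ribosomal protein genes. The biogenesis factors also split by number in both groups, with centred medians of 0.029 and 0.072 in pGRHL2 replicates 1 and 2 but -0.196 and -0.215 in replicates 3 and 4.

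**Figure D5:**
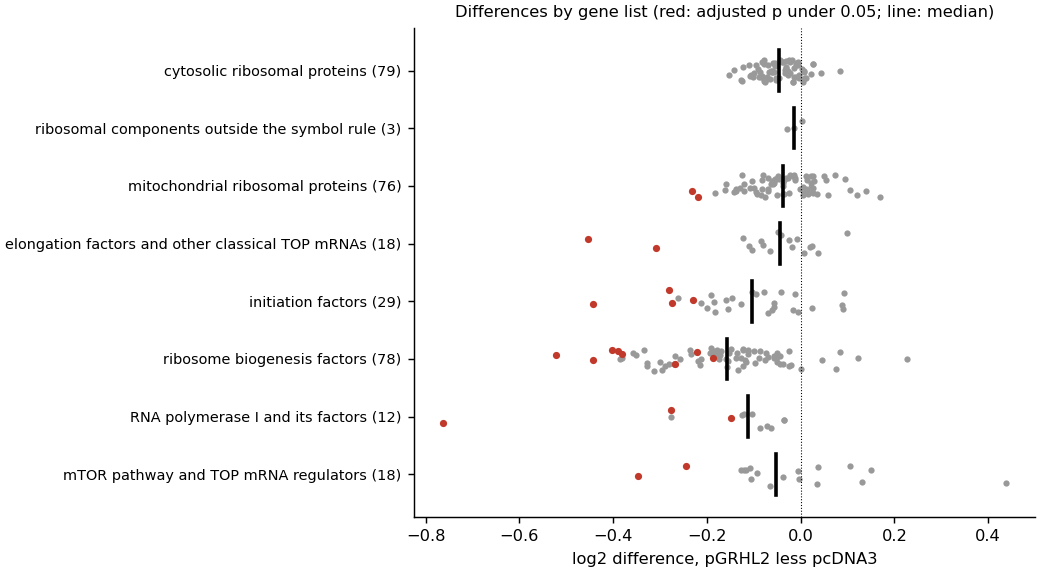
Log2 difference, pGRHL2 less pcDNA3, of each gene (points; red where the limma adjusted p was under 0.05) and the median (line) for the ribosomal protein genes and 7 related gene lists, with the number of genes in parentheses. The ribosomal protein genes lie between -0.15 and 0.08 with none in red, while the biogenesis factors reach -0.52 and the polymerase I genes -0.76.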

How the data were processed

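RNA-seq (paired-end) was performed by the authors on 8 BMEL samples, 4 per plasmid, grouped and numbered by the GEO labels. The submitters' processing notes name HISAT2 2.2.1, HTSeq 0.9.1 and DESeq2 1.40.2, and the builds mm10 and GRCm39. Per the methods, the authors counted exonic reads irrespective of strand, dropped genes under 10 reads summed over samples, and scaled DESeq2's rlog values to mean transcript length. That text opens with public data, and its use for these samples is an assumption. The deposited values are on a log2 scale although named for FPKM: they run from -2.85 to 18.01, and 4.81% of 149368 lie below 0. The rlog shrinks differences of low genes, and read depth is not given by these values, so no interval that needs it is printed.

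All 18671 genes were tested as deposited with limma 3.58.1 in R 4.3.3 (moderated by empirical Bayes along the mean-variance trend; two-sided, called at a Benjamini-Hochberg adjusted p under 0.05 over all genes). On simulated data of the same size, with noise independent between genes and samples, limma recovered 189 of 200 changed genes and called 11 of 18471 unchanged ones. The planted changes were larger than the difference of any member, and deviations shared between samples were not simulated. Recovery of differences as small as those of the members was not tested. Same-numbered samples deviated together over all genes (r = 0.474, 0.565, 0.549 and 0.645 for numbers 1 to 4), which met the bound of 0.1 set for taking the replicate numbers of the labels as pairs, and the replicate block was run beside the main test. Samples of different number within 1 and 2, or within 3 and 4, deviated together to a like degree (r = 0.344 to 0.602), so the numbers also form 2 sets. The members and lists were chosen with earlier results of these data known. Named members were the 6 highest and 6 lowest differences, the 3 highest and 3 lowest levels, and 9 with known roles (Rplp0, Rplp1, Rplp2, Rpl5, Rpl11, Rps6, Rpsa, Rps27a and Rpl41). A few genes the rule takes are not reported here. From the lists they were set genes and the largest called change in each direction. Gene positions, GC content and lengths are those of GENCODE M21 on GRCm38, found for 18428 genes and all members, and promoters those of RefSeq on GRCm38.p6. Alternatives were 6 scalings, the block, no trend, a mean value of at least 0, GC and length corrections by lowess, and each sample left out. Leaving out both replicates 2 was added after seeing the data.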

Additional observations from a re-analysis of the deposited data

Results flagged for a closer look

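Groups of 4 samples were tested for the members described by rule, Grhl2 and the median of the members. In 4 of 42 groups, 1 sample lay apart from the other 3 beyond the 95% critical value of Dixon's ratio. Chance gives about 1 in 20 for a single group, but the members share the same libraries, so the 42 are not separate trials. Over all 79 members, control replicate 2 was flagged for 12 and pGRHL2 replicate 3 for 6, and any other sample for at most 2. Control replicate 2 was apart and lowest for Rps4x (14.6) and Rplp0 (15.99). Replicate 3 of pGRHL2 was apart and lowest for Rpl23 (13.5) and Rpl38 (11.48).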

How the results depend on the processing

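No member was called higher under any of the 21 alternatives, and the median of the members stayed below 0 in all of them. Counts of members called lower moved from 0 of 79 as follows, with the share of all genes called lower in parentheses. They were 2 with quantile normalization (7.97%), 2 with the GC correction (6.83%) and 1 with the length correction (6.73%). The replicate block gave 4 (13.9%), the GC correction and replicate block 10 (14.7%), and leaving out both replicates 2 gave 15 (5.04%). Leaving out 1 sample gave 0 to 13, with the member median between -0.092 and -0.021. The 13 were found without pcDNA3 replicate 2, where 4.57% of all genes were lower. The number of all genes called higher moved from 1957 to 3064 with an equal upper quartile, 1119 with an equal median, 3396 with the replicate block and 3157 with the GC correction and replicate block. Genes called lower moved from 1104 to 2589 with the block and 2751 with the GC correction and block, and ranged from 690 to 1036 with 1 sample left out (690 without pGRHL2 replicate 3, 691 without pcDNA3 replicate 1, 719 and 722 without pGRHL2 replicates 4 and 1). Calls in the higher direction made up 63.9% as deposited, 75.9% with an equal upper quartile, 77.0% with an equal sum, 74.8% with an equal sum over genes that are not members, 47.1% with an equal median and 52.0% with quantile normalization. The Grhl2 difference ranged from 1.47 to 1.91 with 1 sample left out. Of the values of named genes under these alternatives, 941 kept their direction and their side of the threshold, 34 came past the threshold and 33 fell short of it. The causes were not tested.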
